A study of Arabidopsis thaliana with 24 samples.

Results

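The cytosolic ribosomal stalk protein genes of Arabidopsis thaliana were followed across 24 RNA-seq libraries. The family was taken as a list of 10 AGI locus codes: 3 P1 genes (AT1G01100, AT4G00810, AT5G47700), 4 P2 genes (AT2G27720, AT2G27710, AT3G28500, AT3G44590) and 3 P0 genes (AT2G40010, AT3G09200, AT3G11250). All 10 were present among the 33602 genes of the count table. The codes carry no measured value, but the family was picked with earlier results of the same comparisons in view, so the fold changes and adjusted p-values below describe the output of a fit over all genes and are not independent tests of the family. The reference annotation (TAIR10.1) calls the P1 and P2 genes "60S acidic ribosomal protein family" and the P0 genes "Ribosomal protein L10 family protein".

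Whole seedlings of 3 genotypes were used: the mutants card1-1 and card1-2, and their parent, here called WT. All 3 are in the Col-0 ecotype and express aequorin, a calcium-reporting photoprotein that the WT controls carry as well. After 7 days in liquid medium, the seedlings were given 5 µM of the quinone DMBQ or an equal volume of the solvent DMSO (mock) for 10 min, giving 6 groups of 4 libraries. CARD1 (AT5G49760) encodes a receptor-like kinase known to be needed for quinone responses, and the comparisons ask how the transcriptome of each genotype differed between DMBQ and mock. The card1 lesions and the number of seedlings per library are not given in the labels. Nor do they say that replicates were separately grown, so the tests rest on library-to-library spread that may be technical.

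In the large ribosomal subunit, the stalk is the flexible arm that recruits and activates the translational GTPases. P0 anchors it to the ribosomal RNA, next to the protein uL11, and carries dimers of the small acidic proteins P1 and P2, whose shared C-terminal tail touches the elongation factors. Plants have, in addition, a P3 protein related to P1 and P2. Ribosomal protein genes in plants are encoded by small families of near-identical copies and are commonly transcribed together with other translation genes.

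The coding ends below are shown because they encode the tail that contacts the elongation factors, and because they show how far the P1 and P2 copies can be told apart by reads. Each is the last 33 coding bases before the stop codon of the longest annotated coding sequence, read 5′ to 3′ on the coding strand from TAIR10.1. Capitals mark bases that differ from AT2G27710, the most abundant member.
AT2G27710 (P2): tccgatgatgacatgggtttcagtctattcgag
AT2G27720 (P2): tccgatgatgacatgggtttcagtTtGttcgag
AT3G44590 (P2): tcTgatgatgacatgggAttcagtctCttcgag
AT3G28500 (P2): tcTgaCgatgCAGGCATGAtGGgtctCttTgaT
AT1G01100 (P1): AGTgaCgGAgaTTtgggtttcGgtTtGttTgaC
AT5G47700 (P1): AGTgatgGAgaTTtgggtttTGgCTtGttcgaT
AT4G00810 (P1): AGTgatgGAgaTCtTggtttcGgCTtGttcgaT
AT2G27720 and AT3G44590 differed from AT2G27710 at 2 and 3 of these bases, the P1 genes at 13 each, and AT3G28500, the member that was hardly expressed, at 16.

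Over whole coding sequences the closest pair was AT1G01100 and AT5G47700, at 92.4% identity. AT3G09200 and AT3G11250 were 88.6% identical. The tandem neighbours AT2G27720 (chr2:11818230-11819646, + strand) and AT2G27710 (chr2:11816634-11817972, + strand) were 80.9% identical, with the longer coding sequence as the denominator. That pair also shared the longest identical run, 55 bases, shown because a read lying wholly inside it cannot be assigned to either gene.
AT2G27720, chr2:11819022-11819076, and AT2G27710, chr2:11817306-11817360: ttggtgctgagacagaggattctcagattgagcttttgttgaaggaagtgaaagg

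Of the 6 P1 and P2 genes whose values move together below, only some had a match to the upstream motifs searched for here. A pair of motifs described upstream of plant translation genes were searched on both strands in the 250 bases before each annotated gene start: the telo box AAACCCTA and the site II element, TGGGCC or TGGGCT. These motifs do not overlap each other, and other motifs or sequence outside those 250 bases were not searched. A site II match lay upstream of 7 of the 10 members, against 19.2% of 27438 nuclear protein-coding genes and 56.6% of 304 other ribosomal protein genes. These 7 were the P1 genes, the hardly expressed AT3G28500 and the P0 genes. The windows of all the P0 genes overlap another annotated gene. A telo box lay upstream of 1 member, AT4G00810, against 4.49% of all genes and 15.8% of other ribosomal protein genes. No match was found upstream of AT2G27720, AT2G27710 or AT3G44590. Of the windows, 3 are shown because they span this range, from both motifs to none, with matches in capitals.
AT4G00810, chr4:347294-347543, - strand: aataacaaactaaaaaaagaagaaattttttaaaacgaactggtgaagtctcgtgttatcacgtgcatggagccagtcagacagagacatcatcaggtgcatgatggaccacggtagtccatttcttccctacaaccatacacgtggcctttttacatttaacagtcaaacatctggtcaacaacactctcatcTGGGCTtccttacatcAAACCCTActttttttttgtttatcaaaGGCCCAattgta
AT1G01100, chr1:51211-51460, - strand: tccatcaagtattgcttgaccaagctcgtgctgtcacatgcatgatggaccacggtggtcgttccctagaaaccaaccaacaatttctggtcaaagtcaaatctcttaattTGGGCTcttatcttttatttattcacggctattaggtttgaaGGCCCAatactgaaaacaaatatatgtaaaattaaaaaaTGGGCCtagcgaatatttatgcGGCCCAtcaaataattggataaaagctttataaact
AT3G44590, chr3:16163459-16163708, + strand: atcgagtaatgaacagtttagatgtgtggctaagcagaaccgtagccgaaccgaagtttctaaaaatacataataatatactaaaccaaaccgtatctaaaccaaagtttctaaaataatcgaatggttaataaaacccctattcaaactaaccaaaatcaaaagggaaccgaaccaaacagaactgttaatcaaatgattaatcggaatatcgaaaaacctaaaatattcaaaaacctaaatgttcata

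The libraries held 2048246 to 9000207 gene counts each. Replicate 2 of card1-2 with DMBQ stood apart: it was the deepest library, with the highest values of all 24 libraries for the tandem P2 genes, so the results for card1-2 with DMBQ against mock are given with and without it. The share of records set aside because the read aligned to several places also differed between groups: it was 48.3% to 66.5% in card1-1 with DMBQ, against 17.3% to 32.3% in card1-1 mock. It was 31.9% to 61.1% in card1-2 with DMBQ, against 33.6% to 41.2% in card1-2 mock, and 29.7% to 41.8% in WT with DMBQ, against 21.3% to 29.0% in WT mock. CARD1 itself averaged 54.1 ± 6.03 CPM in card1-1 mock and 52.8 ± 12.7 CPM in card1-2 mock, against 71.4 ± 5.41 CPM in WT mock (SD, n = 4 each), and it was not called in either comparison (edgeR adjusted p at least 0.999).

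Levels are CPM, counts scaled to a common library total after TMM scaling, a per-library correction for composition, and levels of different genes are compared only as CPM per kilobase of annotated exon. That scale assumes reads along the whole transcript, but whether these libraries cover only 3′ ends was not stated. Reads that align to several places are also left out, and near-identical copies may lose more of them. The ranks here, and the class ratios and shares below, are therefore approximate. Per kilobase, in WT with DMBQ, AT2G27710 was highest at 769 ± 59 CPM per kb (SD, n = 4). AT2G27720, at 381 ± 35.8, and AT1G01100, at 363 ± 29.9, came next and did not differ beyond their spread. AT5G47700 at 293 ± 16, AT3G44590 at 290.1 ± 13.5, AT4G00810 at 275 ± 11.7 and the P0 gene AT3G09200 at 269 ± 7.25 CPM per kb followed. From AT5G47700 on, the mean ± SD ranges of neighbours in that order overlapped. In WT mock AT2G27710 again stood highest, at 913 ± 159 CPM per kb, and the 6 genes after it ranged from 238 to 381 CPM per kb. The remaining P0 genes were low: AT3G11250 had 16.2 ± 3.22 and AT2G40010 had 3.45 ± 0.401 CPM per kb in WT with DMBQ. AT3G28500 had 0 to 11 counts per library and 0 counts in 10 of 24 libraries, so it did not pass the filter on low counts and was not tested. It remained at 0 to 2.02 CPM in every group.

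The 9 members that passed the filter are the ones tested here, by edgeR's quasi-likelihood test with Benjamini-Hochberg adjustment over 17734 genes. A gene is called at an adjusted p below 0.05. In card1-1, 5 of the 9 were called higher with DMBQ, where 3.55% of all genes tested were. In card1-2, 5 of the 9 were called higher with DMBQ, where 1.07% of all genes were. That count was 1 without DMBQ replicate 2 (where 1.56% of all genes were called in either direction), 2 without mock replicate 2 (1.23%), and 3 without mock replicate 1 (1.35%) or 3 (1.17%). In WT none was called in either direction, where 1.03% of all genes were, none reached an unadjusted p below 0.05 (5.55% of all genes did), and DESeq2 and limma voom called none either. The median log2 fold change of the 9 members was 0.74 in card1-1, 0.61 in card1-2 and 0.02 in WT, beside -0.00, 0.02 and -0.01 for all genes tested. These are RNA levels in whole seedlings, in which more RNA per cell and more cells of a type cannot be told apart.

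**Figure D1:**
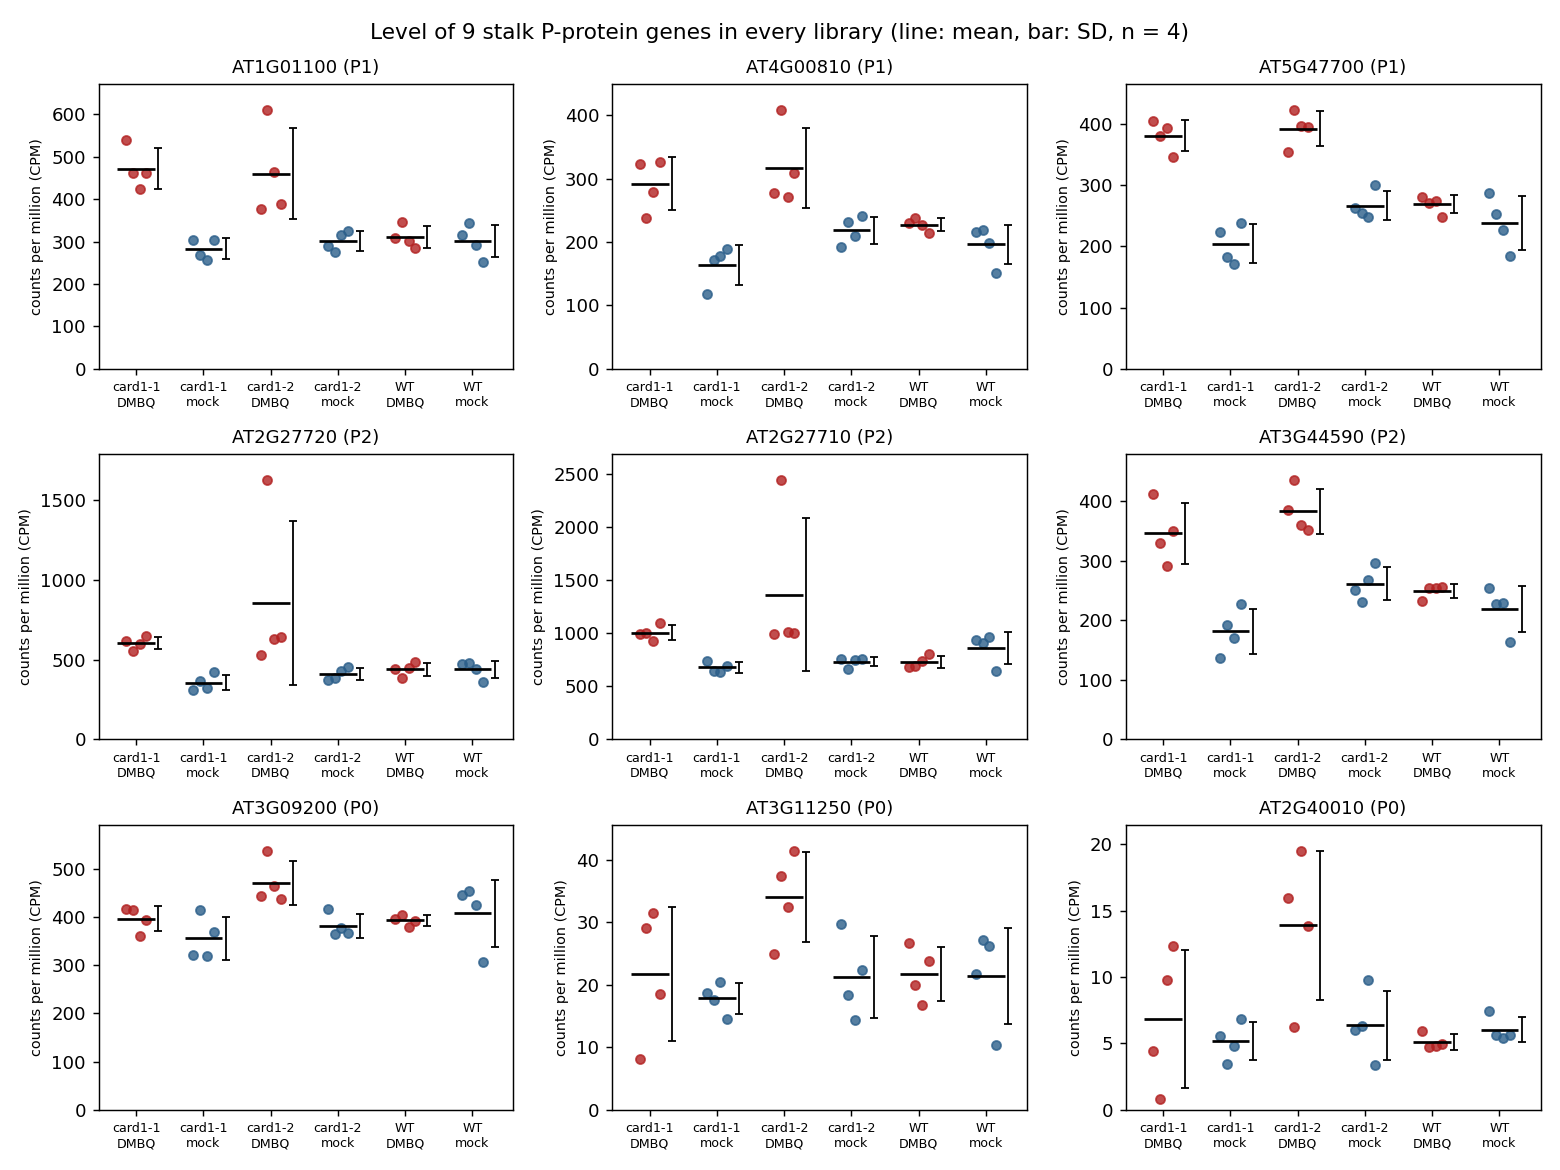
Level of the 9 tested stalk genes in CPM (vertical axes from 0) in each of 24 libraries, by group, with DMBQ groups in red and mock groups in blue. Lines are means and bars SD over 4 libraries. The P1 genes and AT3G44590 lie higher in both mutants with DMBQ than in mock, and replicate 2 of card1-2 with DMBQ reaches 1626 CPM for AT2G27720 and 2443 CPM for AT2G27710.

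The 3 P1 genes, whose products pair with P2 in the stalk dimers, were higher in every DMBQ library than in every mock library of each mutant. AT5G47700 (chr5:19327566-19328986, - strand) had 405, 379.7, 394 and 345 CPM in card1-1 with DMBQ, against 223, 182, 172 and 238 CPM in card1-1 mock. Every DMBQ library lay above every mock library, as it did for 4.86% of all genes tested. The log2 fold change was 0.90 (SE 0.14, edgeR adjusted p = 8.42e-05), and the call was kept under all 19 alternatives tried, with a highest adjusted p of 0.0217. In card1-2, AT5G47700 had 354, 423, 397 and 394 CPM with DMBQ, against 262, 254, 248 and 300.1 CPM in mock. Again the libraries did not overlap, as for 4.07% of all genes in card1-2. The log2 fold change was 0.56 (SE 0.14, edgeR adjusted p = 0.0196), and without replicate 2 of card1-2 with DMBQ it was 0.52 with an adjusted p of 0.0520. The call was lost under 8 of 19 alternatives, with an adjusted p of up to 0.266. In WT the same gene had 281, 271, 274 and 247 CPM with DMBQ, against 287, 253, 227 and 183 CPM in mock, and these libraries overlapped.

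AT1G01100 (chr1:49909-51210, - strand), the most abundant P1 gene, had 539, 461, 425 and 463 CPM in card1-1 with DMBQ, against 303, 269, 256 and 305 CPM in card1-1 mock. The libraries did not overlap, and the gene rose by a log2 fold change of 0.74 (SE 0.14, edgeR adjusted p = 0.000990). In card1-2 it had 377, 611, 465 and 388 CPM with DMBQ, against 289, 275, 316 and 326 CPM in mock, with no overlap. The log2 fold change there was 0.61 (SE 0.14, edgeR adjusted p = 0.0109), and 0.44 with an adjusted p of 0.0907 without replicate 2. In WT, AT1G01100 averaged 310.3 ± 25.6 CPM with DMBQ and 301 ± 38.7 CPM in mock (SD, n = 4 each), a difference smaller than either spread.

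AT4G00810 (chr4:345911-347293, - strand), the third P1 gene, had 324, 238, 279 and 326 CPM in card1-1 with DMBQ, against 118, 171, 177 and 189 CPM in card1-1 mock. It was higher in every DMBQ library, with a log2 fold change of 0.83 (SE 0.16, edgeR adjusted p = 0.000753). In card1-2 it had 277, 409, 271 and 309 CPM with DMBQ, against 192, 231, 210.0 and 240.3 CPM in mock. The libraries did not overlap, but the log2 fold change of 0.54 (SE 0.16) was not called (edgeR adjusted p = 0.0545). Without replicate 2 it was 0.39 with an adjusted p of 0.235. In WT it averaged 227 ± 9.66 CPM with DMBQ and 196 ± 31.2 CPM in mock (SD, n = 4 each), and these libraries overlapped.

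Among the P2 genes, which encode the partners of P1, AT3G44590 (chr3:16163709-16164997, + strand) had values most like those of the P1 genes. It had 412, 329, 291 and 351 CPM in card1-1 with DMBQ, against 136, 192, 169 and 227 CPM in card1-1 mock, with no overlap. Its log2 fold change of 0.93 (SE 0.15, edgeR adjusted p = 0.000131) was the largest of the 9 in card1-1. In card1-2 it had 386, 435, 361 and 351 CPM with DMBQ, against 250.5, 231, 268 and 297 CPM in mock, also with no overlap. The log2 fold change was 0.55 (SE 0.15, edgeR adjusted p = 0.0384), and that call was lost under 12 of 19 alternatives, with an adjusted p of up to 0.374. Without replicate 2 of card1-2 with DMBQ it was 0.49 with an adjusted p of 0.115. In WT it averaged 249 ± 11.6 CPM with DMBQ and 218 ± 38.9 CPM in mock (SD, n = 4 each), with overlap.

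AT2G27720, the downstream gene of the tandem P2 pair, had 617, 555, 599 and 649 CPM in card1-1 with DMBQ, against 311, 366, 324 and 419 CPM in card1-1 mock. The libraries did not overlap and the log2 fold change was 0.77 (SE 0.23, edgeR adjusted p = 0.0394), a call lost under 11 of 19 alternatives, with an adjusted p of up to 0.151. In card1-2 it had 527, 1626, 628 and 639 CPM with DMBQ, against 370.3, 382, 431 and 453 CPM in mock. All 4 DMBQ libraries were above mock, and replicate 2, at 1626 CPM, was far above the other 3. The log2 fold change was 1.07 (SE 0.23, edgeR adjusted p = 0.00920), and without replicate 2 it was 0.55 (SE 0.14) with an adjusted p of 0.0240, the one member called then. In WT the means were 438 ± 41.2 CPM with DMBQ and 438 ± 54 CPM in mock (SD, n = 4 each).

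AT2G27710, the upstream gene of the pair and the most abundant member, had 989, 1001, 931 and 1097 CPM in card1-1 with DMBQ, against 737, 646, 632 and 692 CPM in card1-1 mock. The libraries did not overlap, but the log2 fold change of 0.57 (SE 0.19) was not called (edgeR adjusted p = 0.0722). In card1-2 it had 994, 2443, 1009 and 999 CPM with DMBQ, against 759.8, 664, 744 and 758 CPM in mock. The 3 DMBQ libraries other than replicate 2 lay close together, and all 4 were above mock. The log2 fold change was 0.90 (SE 0.19, edgeR adjusted p = 0.00866), and without replicate 2 it was 0.45 (SE 0.13) with an adjusted p of 0.0589. In WT the gene had 678, 694, 734 and 803 CPM with DMBQ, against 938, 912, 962 and 639 CPM in mock. There 3 of 4 mock libraries were above every DMBQ library and the fourth was below them all, and the log2 fold change of -0.25 (SE 0.19) was not called (edgeR adjusted p = 1.00).

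The P0 genes, which encode the anchor of the stalk, were not called in any of the 9 comparisons. AT3G09200 (chr3:2823088-2825241, - strand) supplied 90.2% to 93.4% of the P0 signal per kilobase in the 6 groups. It had 416, 413, 361 and 394 CPM in card1-1 with DMBQ, against 321, 414, 319 and 368 CPM in card1-1 mock. These libraries overlapped, with a log2 fold change of 0.16 (SE 0.13, edgeR adjusted p = 0.561). In card1-2 it had 443, 537, 463 and 437 CPM with DMBQ, against 416, 364, 378 and 367 CPM in mock. The card1-2 libraries did not overlap, and the log2 fold change of 0.30 (SE 0.13) was not called (edgeR adjusted p = 0.266). Without replicate 2 it was 0.23 with an adjusted p of 0.476. In WT it averaged 392 ± 10.6 CPM with DMBQ and 407 ± 69 CPM in mock (SD, n = 4 each).

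The other 2 P0 genes were too low for a precise comparison. AT3G11250 (chr3:3521329-3523071, + strand) averaged 21.8 ± 10.7 CPM in card1-1 with DMBQ and 17.8 ± 2.44 CPM in card1-1 mock (SD, n = 4 each). In card1-2 it averaged 34 ± 7.13 CPM with DMBQ and 21.2 ± 6.54 CPM in mock (SD, n = 4 each), with a log2 fold change of 0.70 (SE 0.31) that was not called (edgeR adjusted p = 0.277). Without replicate 2 the mean with DMBQ was 32.9 ± 8.29 CPM (SD, n = 3) and the log2 fold change 0.65. AT2G40010 (chr2:16708379-16710772, - strand) had 15.9, 6.27, 19.5 and 13.8 CPM in card1-2 with DMBQ, against 6.01, 6.31, 9.75 and 3.4 CPM in mock. These overlapped through replicate 2, the log2 fold change was 1.08 (SE 0.49), and the gene was not called (edgeR adjusted p = 0.294). Without replicate 2 the mean with DMBQ was 16.4 ± 2.89 CPM (SD, n = 3), and the log2 fold change of 1.34 had an adjusted p of 0.201. In card1-1 with DMBQ its 4 libraries ran from 0.806 to 12.3 CPM, against 3.47 to 6.87 CPM in card1-1 mock.

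**Figure D2:**
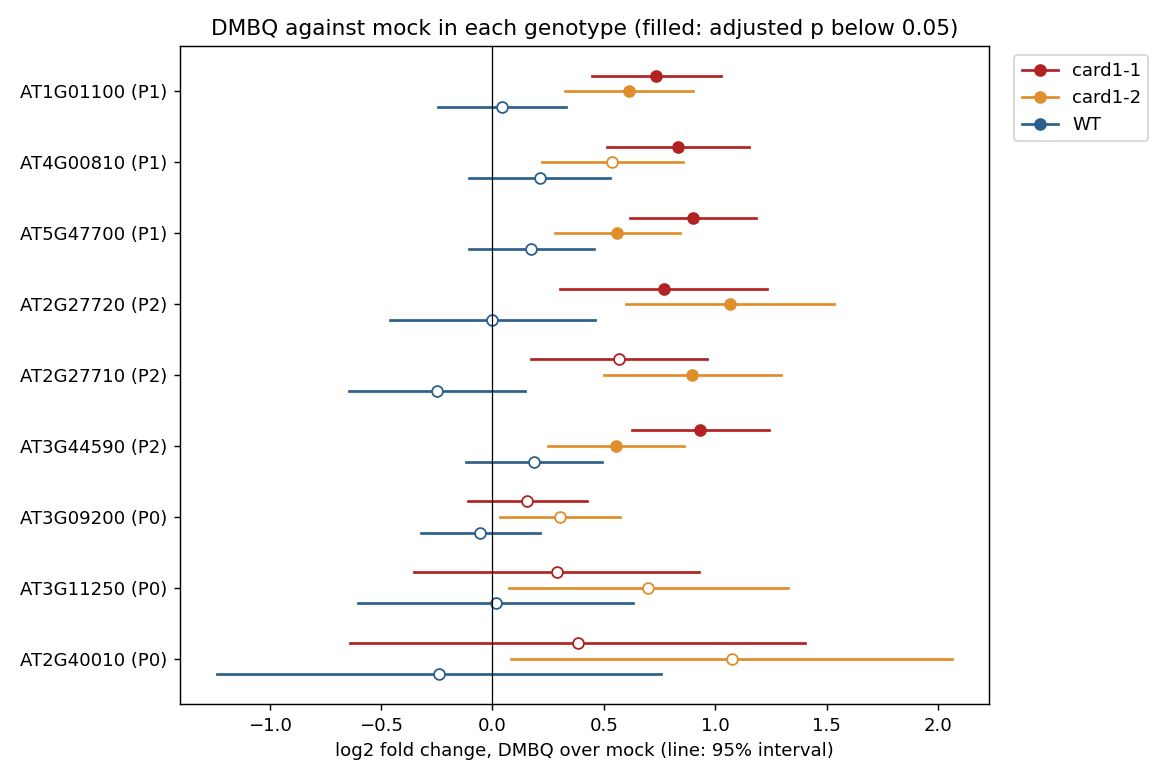
Log2 fold change of DMBQ over mock (horizontal axis) for each tested stalk gene in card1-1, card1-2 and WT. Points are edgeR estimates, lines are 95% intervals, and filled points are called at an adjusted p below 0.05. The P1 and P2 genes sit between 0.54 and 1.07 in the mutants and between -0.25 and 0.21 in WT, and no P0 gene is called.

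The balance of the classes within a library was taken as the summed CPM per kb of one class over that of another. The exons of the P1 genes were 826 to 915 bases long, those of the P2 genes 858 to 1151 and those of the P0 genes 1341 to 1477. The ratios were not adjusted for the trend with exon length described below, and its part in them was not tested. In card1-1 the P1 to P0 ratio was 4.52 ± 0.370 with DMBQ and 2.91 ± 0.344 in mock (SD, n = 4 each), and the ranges of 4.07 to 4.97 and 2.41 to 3.16 did not overlap. The P2 to P0 ratio in card1-1 was 6.82 ± 0.433 with DMBQ and 4.78 ± 0.465 in mock (SD, n = 4 each), also without overlap. In card1-2 the P1 to P0 ratio was 3.77 ± 0.291 with DMBQ and 3.24 ± 0.387 in mock (SD, n = 4 each), and the ranges overlapped. Without replicate 2 it was 3.63 ± 0.119 with DMBQ (SD, n = 3), still with overlap. The P2 to P0 ratio in card1-2 reached 11.3 in replicate 2 with DMBQ, and its range of 5.73 to 11.3 began just above the mock range of 4.56 to 5.70. Without replicate 2 the DMBQ libraries held 5.73 to 5.96. In WT the P1 to P0 ratio was 3.23 ± 0.174 with DMBQ and 2.86 ± 0.179 in mock, and the P2 to P0 ratio was 5.00 ± 0.426 with DMBQ and 5.20 ± 0.200 in mock (SD, n = 4 each), both with overlap.

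The make-up of the P2 class was measured as each gene's percentage of the class's CPM per kb. In WT, AT2G27710 held 53.4% ± 0.845 with DMBQ and 58.8% ± 1.59 in mock (SD, n = 4 each). AT3G44590 held 20.2% ± 1.19 with DMBQ and 16.4% ± 0.713 in mock (SD, n = 4 each). Neither pair of WT ranges overlapped, though neither gene was called in WT by level. In card1-1 the same shares were 53.4% ± 1.91 with DMBQ and 58.1% ± 4.67 in mock for AT2G27710 (SD, n = 4 each), with overlap. They were 20.2% ± 2.16 with DMBQ and 17.0% ± 2.74 in mock for AT3G44590 in card1-1 (SD, n = 4 each), also with overlap. In card1-2, AT2G27710 held 54.0% ± 2.35 with DMBQ and 54.0% ± 1.95 in mock (SD, n = 4 each), and 52.8% ± 0.732 with DMBQ without replicate 2 (SD, n = 3). AT3G44590 in card1-2 held 18.8% ± 5.15 with DMBQ and 21.2% ± 0.853 in mock (SD, n = 4 each), the reverse order to WT, and 21.3% ± 1.44 with DMBQ without replicate 2 (SD, n = 3).

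Across the 24 libraries the 6 tested P1 and P2 genes varied together. Over their 15 pairs, Pearson's r of log2 CPM ran from 0.71 to 0.94 with a median of 0.84. It was highest for the tandem pair AT2G27720 and AT2G27710. Over the 21 pairs with a P0 gene it ran from 0.16 to 0.74 with a median of 0.34. For AT3G09200, the abundant P0 gene, r with the 6 P1 and P2 genes was 0.61 to 0.74. These are descriptions over libraries that share groups, depth and the deep replicate 2 of card1-2 with DMBQ, and the lower P0 values include the sparse counts of AT2G40010 and AT3G11250.

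Without DMBQ, no member was called in either mutant against WT. In card1-1 mock against WT mock the 9 log2 fold changes were all below 0, from -0.35 to -0.09 with a median of -0.26, where 0 genes of 17734 were called. In card1-2 mock against WT mock they ran from -0.24 to 0.26 with a median of -0.00, where 0.0226% of all genes were called. No member reached an unadjusted p below 0.05 in either (3.91% of all genes did for card1-1 and 3.29% for card1-2), and DESeq2 and limma voom called none.

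With DMBQ, 1 of the 9 was called higher in card1-1 than in WT, where 0.276% of all genes were. It was AT1G01100, with 472 ± 48 CPM in card1-1 with DMBQ and 310.3 ± 25.6 CPM in WT with DMBQ (SD, n = 4 each). Its log2 fold change was 0.60 (SE 0.14, edgeR adjusted p = 0.0313). The call was lost under 9 of 19 alternatives, with an adjusted p of up to 0.150, among them leaving out any 1 of the 4 WT libraries with DMBQ or replicate 1 or 2 of card1-1 with DMBQ. The median of the 9 was 0.46, and for 6 of the 9 every card1-1 library lay above every WT library, as for 3.11% of all genes. In card1-2 against WT with DMBQ, 5 of the 9 were called higher, where 0.468% of all genes were: AT1G01100, AT5G47700, AT2G27720, AT2G27710 and AT3G44590, with log2 fold changes of 0.55 to 0.97 and edgeR adjusted p-values of 0.0214 to 0.0447. For 8 of the 9 every card1-2 library lay above every WT library, as for 3.32% of all genes. None of these 5 was called without replicate 2 of card1-2 with DMBQ, where 0.266% of all genes were called in either direction. Nor was any without any 1 of the 4 WT libraries with DMBQ (0.122% to 0.467% of all genes). Without replicate 3 of card1-2 with DMBQ, 3 were called (0.482% of all genes). The median without replicate 2 of card1-2 was 0.46 in place of 0.62. Both comparisons use the same 4 WT libraries.

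The differences in DMBQ response between each mutant and WT were tested as interaction terms. All 9 were above 0 in both mutants, with medians of 0.69 for card1-1 minus WT and 0.57 for card1-2 minus WT. None was called by edgeR, where 0.0564% of all genes were called for card1-1 and 0.0282% for card1-2. For card1-1 minus WT, 6 of the 9 had an unadjusted p below 0.05 (9.41% of all genes did), and the lowest adjusted p was 0.145, for AT5G47700 (log2 difference 0.73, SE 0.20). For card1-2 minus WT, 3 of the 9 did (7.64% of all genes), and the lowest adjusted p was 0.169, for AT2G27710 (log2 difference 1.15, SE 0.27). Without replicate 2 of card1-2 with DMBQ that difference was 0.70 (SE 0.17, edgeR adjusted p = 0.143) and the median of the 9 was 0.40. DESeq2 called 1 member in each: AT5G47700 for card1-1 (adjusted p = 0.0274) and AT2G27710 for card1-2 (adjusted p = 0.0240), where it called 1.13% of all genes for card1-1 and 0.755% for card1-2, and limma voom called none. So the call in a mutant and its absence in WT were not shown to differ by edgeR, and the interactions share the WT libraries.

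Beyond the 10 members, a list of 20 other stalk and elongation genes was read in the same fit, of which 18 passed the filter. In card1-1, where 3.55% of all genes tested were called higher with DMBQ, 7 of the 18 were and none was called lower, with a median of 0.45. They were the P3 gene AT5G57290 (log2 fold change 0.77) and AT3G53430 (0.73), a gene for uL11, which sits beside P0 at the stalk base. The others were 3 genes for eEF1A, which delivers aminoacyl-tRNA, AT1G07920 (1.13), AT1G07940 (0.86) and AT5G60390 (0.67), and 2 for eEF1B, its nucleotide exchange factor, AT1G30230 (0.95) and AT5G19510 (0.45). The eEF2 genes AT1G56070 (0.08) and AT3G12915 (0.36), which encode the translocase, were not called in card1-1. In card1-2 none of the 18 was called with DMBQ, with a median of 0.24, and in WT none was, with a median of 0.04. The 18 ran from -0.33 to 0.45 in WT, highest for AT1G30230 (SE 0.14, edgeR adjusted p = 0.142). That gene had 926 to 1043 CPM in WT with DMBQ, against 713 to 756 CPM in WT mock. Its libraries did not overlap, as for 4.22% of all genes tested. Reads of the eEF1A copies, like those of the P genes, can align to several copies, so values for single copies are uncertain.

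A broader list of 304 other ribosomal protein genes was chosen by annotation words. It may include some organelle proteins and miss ribosomal protein genes annotated in other words. Of the 304, 273 passed the filter. In card1-1, 86 of these were called higher and 5 lower with DMBQ, with a median log2 fold change of 0.44. Of all 17734 genes tested, 629 were called higher there and 560 lower. In card1-2, 13 of the 273 were called higher and 0 lower, with a median of 0.30, where 190 and 200 of the 17734 were. In WT none of the 273 was called in either direction, with a median of 0.03, where 1.03% of all genes were.

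**Figure D3:**
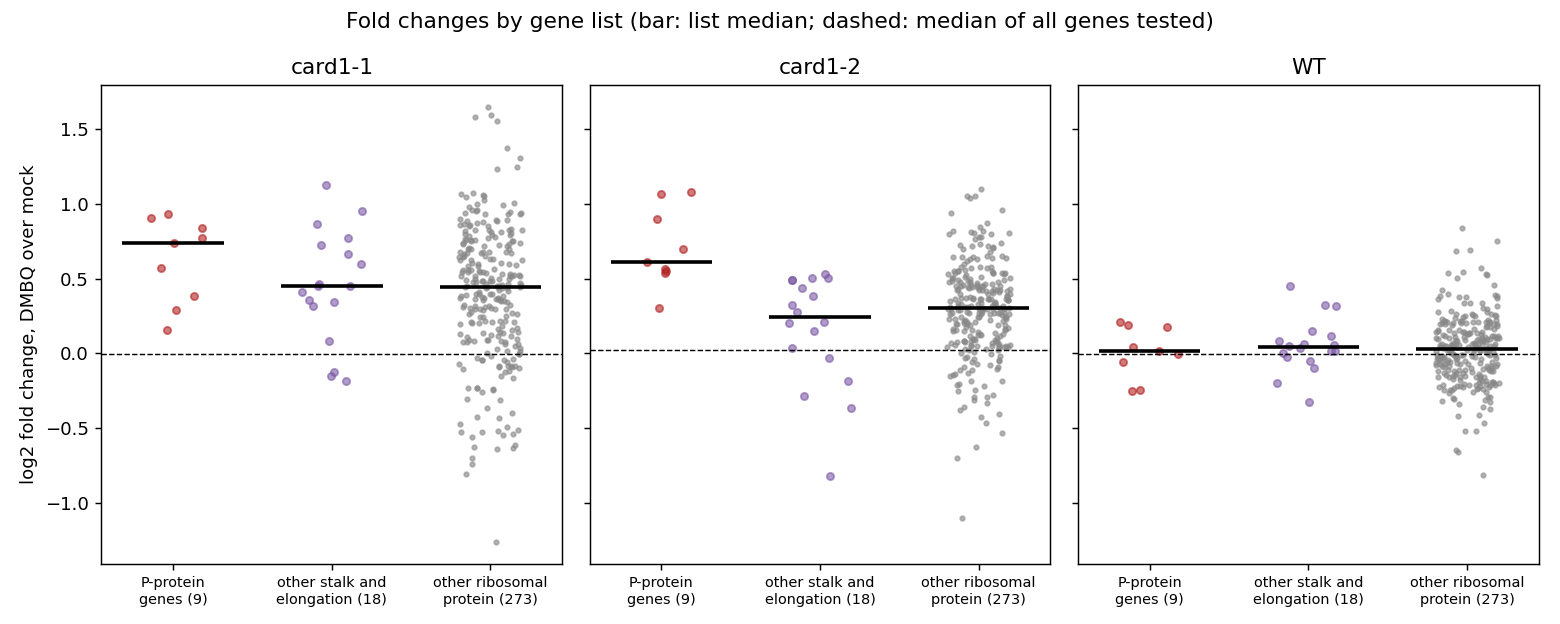
Log2 fold change of DMBQ over mock (vertical axis) for the 9 stalk genes, 18 other stalk and elongation genes and 273 other ribosomal protein genes in card1-1, card1-2 and WT. Points are genes, bars are list medians and the dashed line is the median of all genes tested. In the mutants the medians run from 0.24 to 0.74, and in WT they lie between 0.02 and 0.04.

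Several other measures moved with these values. The exons of the tested members had a median length of 945 bases, against 1825 bases for all genes tested, and in card1-1 the genes called higher with DMBQ had a median of 1135 bases, against 2750.5 bases for those called lower. In card1-2 those medians were 1305.5 and 3151.5 bases. With offsets that remove a trend with length from each library, the median of the 9 was 0.45 in card1-1 with 4 called, and 0.36 in card1-2 with 2 called, where 3.73% and 1.16% of all genes were called in either direction. With the share of records not unique as a covariate, the median was 0.91 in card1-1 with 3 called and 0.62 in card1-2 with 4 called, where 0.671% and 2.04% of all genes were. In card1-1 that share did not overlap between DMBQ and mock, so this fit could not separate it from the treatment. The members called may also differ between fits. Of 19 alternatives in card1-1, AT1G01100, AT4G00810 and AT3G44590 each lost their call under 1. AT2G27710, not called in the main fit, was called under 4. Without the libraries above 55% not unique the median was 0.66 in card1-1 with 4 called and 0.61 in card1-2 with 5 called, where 3.92% and 1.92% of all genes were. Replicate 2 of card1-2 with DMBQ, which had the highest P1 and P2 sum of all, had a share of 31.9%, below every card1-2 mock library.

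**Figure D4:**
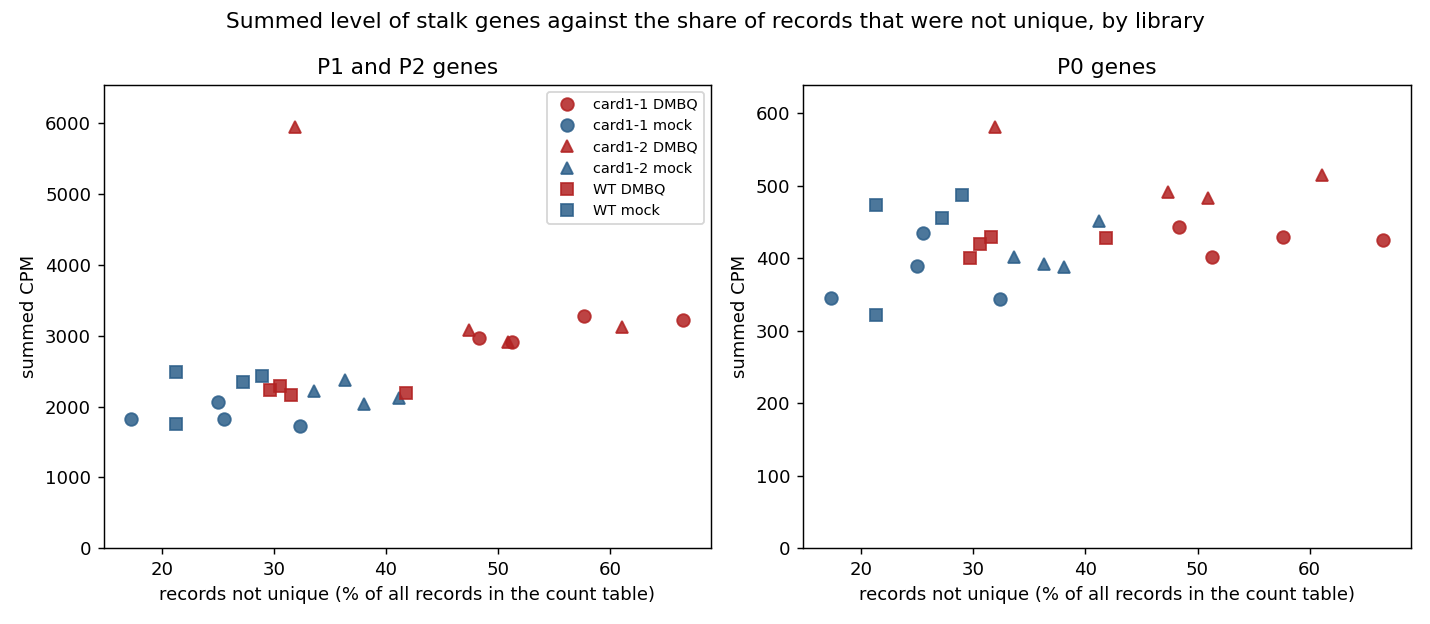
Summed CPM of the P1 and P2 genes (left) and of the P0 genes (right) against the percentage of records not unique in each of 24 libraries. Red is DMBQ, blue is mock, and shapes are genotypes. The mutant DMBQ libraries other than replicate 2 of card1-2 lie to the right of the other groups, and replicate 2 of card1-2 lies at 31.9% with the highest sum.

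Markers of shoot tissue were read as a check on the tissue sampled. The 6 shoot markers, which encode photosynthetic proteins, were detected in every library and summed to 19021 to 22920 CPM in card1-1 with DMBQ, against 13726 to 19425 CPM in card1-1 mock. Of the 6, 5 were called higher and 1, RCA, lower, where 629 and 560 of all 17734 genes tested were. In card1-2 the shoot markers summed to 17859 to 20953 CPM with DMBQ, against 16819 to 20379 CPM in mock. There 1 of them, again RCA, was called lower, where 200 of all 17734 genes were. The 8 root markers summed to 39.4 to 58.6 CPM in card1-1 with DMBQ, against 41.5 to 57.7 CPM in mock, with 1 called lower (RHD2), and all 8 were above 0 in every library only in the WT mock group. They summed to 37.0 to 47.4 CPM in card1-2 with DMBQ, against 43.7 to 56.1 CPM in mock, with none called. The 6 markers of dividing cells, in which ribosomal protein genes are usually high, had none called in either mutant. They summed to 141 to 207 CPM in card1-1 with DMBQ, against 138 to 189 CPM in mock, and to 112 to 155 CPM in card1-2 with DMBQ, against 119.8 to 174 CPM in mock. The part of these markers in the values of the stalk genes was not tested.

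The genes most like the stalk genes over the 24 libraries were ranked by Pearson's r with the mean log2 CPM of the 9 tested members, over 14667 genes averaging at least 5 CPM. The highest 5 were AT2G39390 (r = 0.91), annotated as a ribosomal L29 family protein, AT5G52650 (r = 0.90), an RNA binding Plectin/S10 domain protein, AT4G18100 (r = 0.90), a ribosomal protein L32e, AT1G02780 (r = 0.89), a ribosomal protein L19e, and AT3G48930 (r = 0.88), a nucleic acid-binding OB-fold protein. All 5 descriptions are the annotation's own words, and whether each protein is ribosomal was not looked up. The exons of these 5 genes were 737 to 1109 bases long.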

How the data were processed

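RNA-seq counts per gene were deposited as one table for 24 libraries. Per the submitters' processing notes, CASAVA, bcl2fastq 2.17, TopHat2 2.1.1 and HTSeq 0.6.1 were used with build TAIR10; settings, strand handling and whether libraries cover only 3′ ends were not stated. The deposited estimated counts (so classed because the table also holds a line of percentages) were whole numbers, and nothing was rounded. Reads that align to several places are tallied apart from genes. The 9 lines that name no gene stayed out of library sizes; the not-unique line held 17.3% to 66.5% of all records.

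All 24 libraries were fitted with 6 group terms in edgeR 4.0.16 (R 4.3.3), TMM scaling, filterByExpr (minimum count 10, total 15) and robust quasi-likelihood tests, with p-values adjusted by Benjamini-Hochberg in each of 9 comparisons (threshold 0.05). The method was tested on simulated data. CPM are TMM-scaled. The members and lists were chosen with earlier results of these data known: all 10 members are named, and others by list or likeness. DESeq2 1.42.0 and limma 3.58.1 were alternatives. Deviations of same-number WT libraries with DMBQ and mock correlated at 0.12 to 0.15. Libraries of different numbers were not compared, so this does not show that the numbers pair libraries. The fit with a replicate block called 0 members in WT. Exon lengths and sequences come from TAIR10.1, matched to 32835 of 33602 genes. Libraries of 2048246 to 9000207 counts limit precision for genes of a few CPM.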

Additional observations from a re-analysis of the deposited data

Results flagged for a closer look

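Among 84 sets of 4 libraries checked (the 9 tested members, their class sums and the share of records not unique, in each group), 10 held a library far from the other 3. Chance gives about 1 in 20 for independent sets. These sets are not independent, because the sums hold the members and some flags name the same library again. The 10 are therefore not separate outliers. In card1-2 with DMBQ, replicate 2 stood far above the rest for AT2G27720 (1626 CPM, the others 527 to 639), AT2G27710 (2443 CPM, the others 994 to 1009), the P2 sum (4506 CPM, the others 1907 to 1998) and the sum of all members (6531 CPM, the others 3399 to 3647). In WT mock, replicate 4 lay below the rest for AT2G27710 (639 CPM, the others 912 to 962) and the P2 sum (1165 CPM, the others 1619 to 1666), and replicate 1 lay above them for AT2G40010 (7.47 CPM, the others 5.39 to 5.66). In card1-2 mock, replicate 2 was low for AT2G27710 (664 CPM, the others 744 to 759.8). In WT with DMBQ, replicate 1 was low for AT3G44590 (232 CPM, the others 254 to 255), and replicate 2 had a high share of records not unique (41.8%, the others 29.7% to 31.5%).

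For AT2G27710 and AT3G09200, every DMBQ library of each mutant lay above that mutant's mock mean. In WT, every DMBQ library lay below the mock mean. For AT3G09200 the closest DMBQ library was -3.62 CPM from the mock mean in WT, 5.55 CPM in card1-1 and 55.4 CPM in card1-2. The WT and card1-1 margins were inside the mock SDs of 69 and 44.9 CPM (n = 4 each). For AT2G27710 the closest was -60.04 CPM in WT (mock SD 150 CPM, n = 4), 254 CPM in card1-1 and 262 CPM in card1-2. How many of all genes share this pattern is not given. For AT2G27710 the log2 difference in response was 0.82 for card1-1 minus WT (edgeR adjusted p = 0.276) and 1.15 for card1-2 minus WT (edgeR adjusted p = 0.169). Without replicate 2 of card1-2 with DMBQ, the far library for this gene, it was 0.70 (edgeR adjusted p = 0.143). For AT3G09200 it was 0.21 for card1-1 minus WT (edgeR adjusted p = 0.807) and 0.36 for card1-2 minus WT (edgeR adjusted p = 0.673). The WT mock mean of AT2G27710 also includes replicate 4, a far library named above.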

How the results depend on the processing

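No fold change of a called member changed sign under any alternative. Percentages in brackets are the share of all genes called, in either direction, in the same fit. For DMBQ against mock, 5 members were called in card1-1 (6.7%). That was 3 with the share not unique as a covariate (0.671%), and 4 to 5 leaving out 1 library (3.41% to 6.53%). In card1-2, 5 were called (2.2%). That was 3 with scaling by total counts alone (2.37%). It was 2 with length offsets, without (1.16%) or with the replicate block (1.61%), and 0 when only the 2 groups compared were fitted (1.24%). Leaving out 1 library gave 1 to 5 there (1.17% to 3.06%). The counts were 1 without DMBQ replicate 2 (1.56%), 2 without mock replicate 2 (1.23%), and 3 without mock replicate 1 (1.35%) or 3 (1.17%). For card1-1 against WT with DMBQ, 1 was called (0.801%). That was 2 by DESeq2 (1.76%) and with only the 2 groups fitted (0.597%). It was 0 with length offsets (0.558%), the covariate (0.192%) or without libraries above 55% not unique (0.658%). Leaving out 1 library gave 0 to 1 (0.25% to 0.77%). For card1-2 against WT with DMBQ, 5 were called (0.789%). That was 2 with total counts alone (0.925%), with no filter on low counts (0.49%) and with length offsets, without (0.575%) or with the replicate block (1.03%). It was 3 by limma voom (1.16%) and without libraries above 55% (0.81%), and 0 with only the 2 groups (0.105%). Leaving out 1 library gave 0 to 5 (0.122% to 0.981%). For the response differences 0 were called (0.0564% for card1-1 and 0.0282% for card1-2). DESeq2 called 1 in each mutant (1.13% and 0.755%), and the covariate fit called 1 in card1-2 (0.062%). Leaving out 1 library gave 0 (0.0388% to 0.216% and 0.00553% to 0.0554%). The comparison within WT (0.649% to 2.12%) and the mock comparisons (0% to 0.117%) gave 0 throughout. The causes were not tested. The replicate block moved none of the other counts by more than 1.5 times. Outside WT the same-number correlations were -0.04 to 0.29, and whether the numbers pair libraries was not settled.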
